A study of Homo sapiens with 24 samples.

Results

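Chromatin regulator mRNAs are described here as a panel of 53 genes for histone methyltransferases, histone demethylases, acetyltransferases, chromatin remodellers and a few DNA demethylases, cofactors and readers that work with them. They were chosen by symbol and function, not by a measured value, out of 57992 genes in the count table. Earlier results of these data were known when they were chosen. EHMT2 was listed at 0 counts in all 24 libraries and could not be tested, so 52 members entered the tests, all of them among the 14360 genes with enough counts. Of 44 protein-coding genes within 250 kb of EHMT2 on chromosome 6, 24 were also at 0 throughout, against 9.94% of all protein-coding genes, so its 0 is reported as a listed value and not as absence of the mRNA.

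The RNA came from HEK293T cells, a human embryonic kidney line, each line stably expressing 1 bait protein fused to miniSOG. TIA1-miniSOG and G3BP2-miniSOG mark stress granules and miniSOG-DDX6 marks processing bodies. Cells of all 3 lines were stressed with 0.5 mM sodium arsenite for 1 hr in all, 40 min of it ahead of the probe, and DDX6 cells were also used without arsenite. Labelling took 10 mM propargylamine for 5 min and blue light at 24 mW/cm2 for 15 min. Every combination (TIA1 arsenite, G3BP2 arsenite, DDX6 arsenite and DDX6 unstressed) has a labelled capture, which is the RNA bound to streptavidin, a no-probe capture made without propargylamine, and an input, which is the labelled RNA before capture, with 2 replicate libraries of each. The fusions come from added genes, and each bait has a line of its own, so bait and line cannot be told apart. The labels do not say whether replicates were separate cultures, so p-values measure the spread between these libraries.

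Chromatin regulators change how tightly DNA is packed: writers such as the KMT2 and SETD enzymes add methyl groups to histone lysines, KDM enzymes remove them, EP300 and CREBBP acetylate, and the CHD, SWI/SNF, ISWI and INO80 machines use ATP to slide or exchange nucleosomes. Most of these proteins are very large, and their mRNAs carry long coding sequences. In arsenite-stressed cells translation stalls and mRNAs gather with TIA1 and G3BP proteins in stress granules, where long, poorly translated mRNAs are known to be over-represented. The helicase DDX6 belongs to processing bodies, which hold mRNAs kept from translation and are known to favour AU-rich ones. In light miniSOG makes singlet oxygen, which oxidises nearby guanines, and propargylamine then tags the oxidised base for capture.

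The 8 labelled captures held 3344960 to 5919467 counts, the 8 no-probe captures 1129510 to 3472565 and the 8 inputs 2511043 to 3825961. Members made up 0.548% to 0.937% of counts in labelled captures, 0.303% to 0.627% in no-probe captures and 0.393% to 0.605% in inputs, that is 18339 to 52601, 5272 to 16442 and 10894 to 22213 counts. Replicates correlated across genes with r between 0.937 and 0.991 on log2 CPM, and no pair agreed within sampling noise (chi-square per degree of freedom between 3.16 and 8.22, apart from 19.6 for the DDX6 arsenite no-probe captures, which stood apart). Mitochondrial genes took 1.74% to 8.48% of counts in labelled captures, 18.8% to 30.2% in no-probe captures and 23.7% to 31.6% in inputs. Each bait gene was higher in the inputs of its own line, as in DDX6 with 1100 to 1160 CPM against 138 to 181 CPM in the other lines. VIM and NEFM, filament genes known to be expressed in HEK293T cells, were found in every library (86.4 to 220 and 22.7 to 87.5 CPM), whereas LHX1 had 0 counts in 19 libraries. Of 6 markers of other cell types, HBB and CD3E had no counts, PTPRC, PECAM1 and ALB had at most 6 counts in a library, and COL1A1 had 7.05 to 32.7 CPM.

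The labelled captures were first set against their inputs. With TIA1 under arsenite, 17 of the 52 members were higher in the labelled capture than in the input and 4 lower, which is 32.7% and 7.69% of the panel against a background of 19.4% and 16.4% of all tested genes (edgeR's quasi-likelihood test, adjusted p under 0.05, as throughout). With G3BP2 the counts were also 17 higher and 4 lower, against 20.8% and 17.5% of all genes. With DDX6 under arsenite they were 7 higher and 22 lower, 13.5% and 42.3% of the panel, against 20.4% and 17.3%. DDX6 without arsenite gave 13 higher and 6 lower, against 22.9% and 19.6%, and 36 members in place of 19 passed there in a fit to the compared libraries alone. The median log2 change of the panel was 0.11, 0.14, -0.19 and 0.09 in that order, and that of all tested genes 0.02, -0.01, -0.02 and 0.01. With the trend of enrichment with exon length over all genes removed, the panel medians were -0.15, -0.07, -0.31 and -0.08.

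These directions are relative to the bulk of the genes. Scaling by total counts raised the median of all tested genes to 0.68, 0.52, 0.51 and 0.47 and turned the member counts into 37 higher and 0 lower, 35 and 0, 20 and 2, and 31 and 0, while the panel's median minus that of all genes hardly moved (0.09, 0.14, -0.16 and 0.09). For DDX6 unstressed, the size factors of the RLE method gave 12 higher and 10 lower. Counts also rested on single libraries: 12 members passed with TIA1 without labelled capture replicate 1 and 11 without input replicate 2, 13 with G3BP2 without input replicate 2, and 19 and 18 with DDX6 arsenite without labelled capture replicate 2 or input replicate 1.

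**Figure D1:**
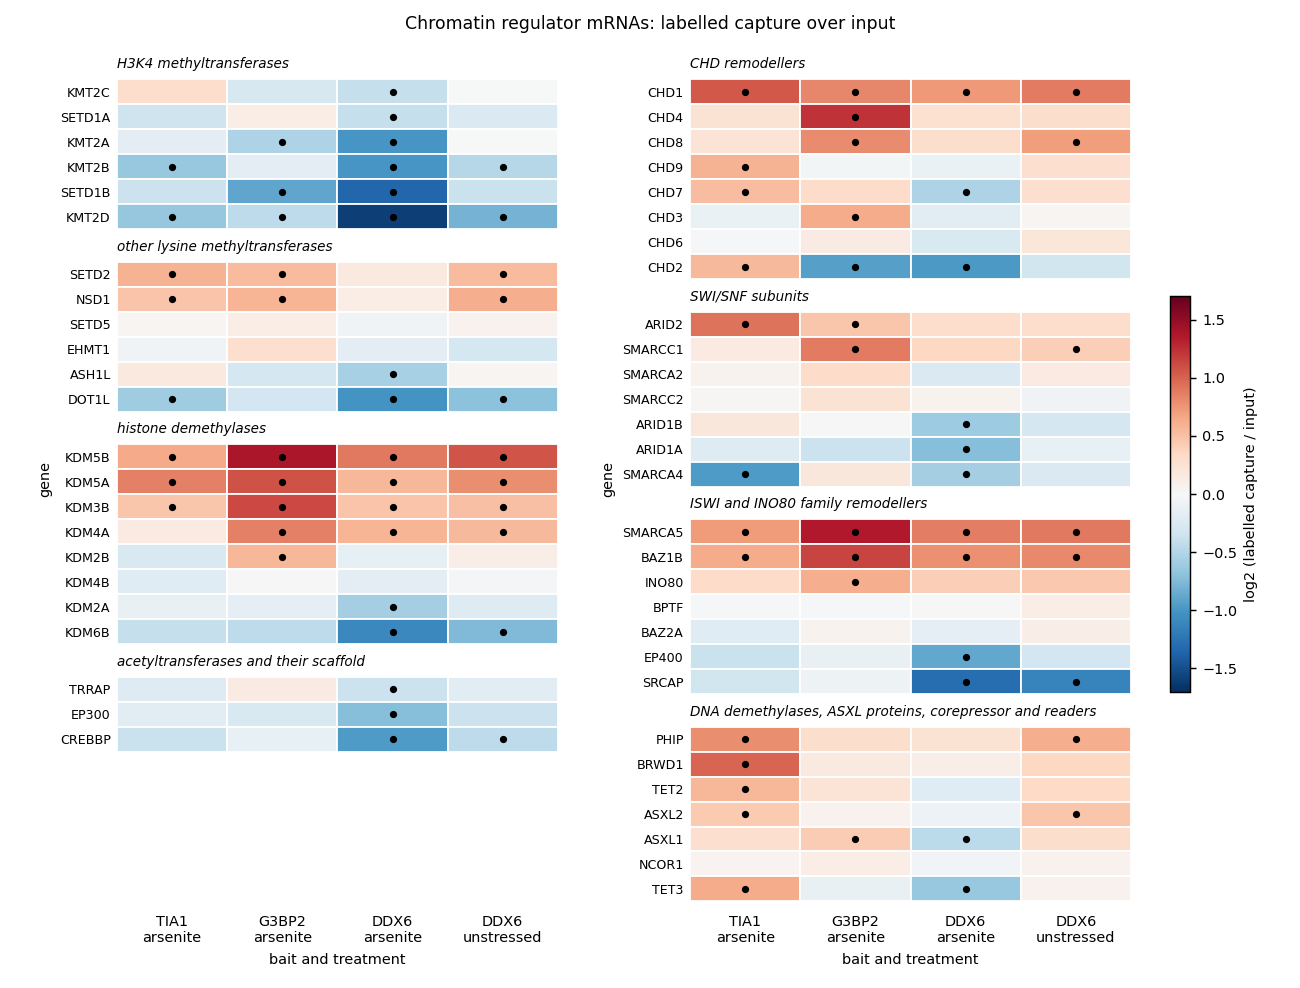
Log2 change of each tested member in the labelled capture over its input (colour), by functional group (rows) and by bait and treatment (columns), with a black dot where the adjusted p is under 0.05. KDM5B, KDM5A, KDM3B, CHD1, SMARCA5 and BAZ1B are red with a dot in all 4 columns and KMT2D is blue with a dot in all 4.

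The labelled captures were also set against the no-probe captures, which show what streptavidin holds without label. Members were higher and lower in 19 and 5 cases with TIA1 (23.7% and 21.7% of all genes), 21 and 5 with G3BP2 (23.7% and 21.7%), 14 and 14 with DDX6 arsenite (22.5% and 20.2%) and 25 and 7 with DDX6 unstressed (25.1% and 23.1%). Both comparisons use the same labelled captures. Under total counts the splits were 44 and 0, 31 and 1, 27 and 3, and 29 and 4. Without no-probe replicate 2 of DDX6 arsenite, 1 of the pair that stood apart, 17 members passed there, and 11 did in a fit to the compared libraries alone. With G3BP2, 16 passed without labelled capture replicate 1 and 17 without no-probe replicate 2. The no-probe captures themselves differed from their inputs in no member, against 0.0139% of all genes for TIA1, 0.167% for G3BP2, 0% for DDX6 arsenite and 0.0139% for DDX6 unstressed, with 4, 7, 10 and 6 members at an unadjusted p under 0.05 and none by DESeq2. Their panel medians were -0.11, -0.07, -0.25 and -0.16. With TIA1, 985 of the 14360 tested genes also had an unadjusted p under 0.05 for no-probe capture over input. The unadjusted counts of members are not read as a result.

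Across the 4 enrichments over input, 6 of the 52 tested members were higher in every one, a share close to the 10.4% of all tested genes. In the same 4, 1 member was lower in every one (5.7% of all tested genes). Of the rest, 9 passed in none (33.8% of all tested genes) and 4 were higher in some and lower in others (0.801%). The 6 were KDM5A and KDM5B, which remove H3K4 methylation, KDM3B, which removes H3K9 methylation, the remodellers CHD1 and SMARCA5, and BAZ1B, a partner of SMARCA5. KMT2D, an enhancer methyltransferase of H3K4, was the member lower in all 4. The 4 with mixed directions were CHD2, CHD7, TET3 and ASXL1. Past the threshold in none of these 4 were SETD5, EHMT1, KDM4B, CHD6, SMARCA2, SMARCC2, BPTF, BAZ2A and NCOR1.

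The coding sequences of the members at the ends of this order look different. Below are 90-base stretches of KDM5B, SMARCA5 and CHD1, the 3 members with the highest mean enrichment (1.00, 0.96 and 0.88 on the log2 scale), and of KMT2D, SETD1B and KDM6B (-0.87, -0.75 and -0.67), the lowest 3 once SRCAP (-0.71), of which other genes overlap more than 50% of the exon bases, is left out. Each stretch lies in 1 coding exon, was taken as the one closest in base composition to its whole coding sequence, comes from GENCODE release 29 on GRCh38, and is printed 5′ to 3′ on the coding strand with guanines, the base that the labelling oxidises, in capitals.
KDM5B, codons 350 to 379, chr1:202760463-202760552, minus strand: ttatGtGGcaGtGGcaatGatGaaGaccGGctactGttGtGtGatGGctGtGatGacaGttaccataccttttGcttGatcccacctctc
SMARCA5, codons 230 to 259, chr4:143526347-143526436, plus strand: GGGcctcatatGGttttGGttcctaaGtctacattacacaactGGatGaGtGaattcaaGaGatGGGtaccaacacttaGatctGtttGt
CHD1, codons 300 to 329, chr5:98899578-98899667, minus strand: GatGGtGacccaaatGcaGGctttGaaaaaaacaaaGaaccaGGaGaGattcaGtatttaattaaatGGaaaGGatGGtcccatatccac
KMT2D, codons 1143 to 1172, chr12:49050072-49050161, minus strand: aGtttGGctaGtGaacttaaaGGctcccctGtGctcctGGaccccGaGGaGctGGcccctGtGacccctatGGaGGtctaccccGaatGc
SETD1B, codons 328 to 357, chr12:121809927-121810016, plus strand: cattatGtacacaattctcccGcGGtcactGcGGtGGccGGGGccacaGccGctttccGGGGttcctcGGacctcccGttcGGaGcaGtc
KDM6B, codons 361 to 390, chr17:7847276-7847365, plus strand: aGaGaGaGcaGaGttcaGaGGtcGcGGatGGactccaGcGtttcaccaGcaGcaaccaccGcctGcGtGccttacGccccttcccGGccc
Guanines number 23, 21 and 20 in the stretches of KDM5B, SMARCA5 and CHD1 and 25, 26 and 25 in those of KMT2D, SETD1B and KDM6B. G and C together number 43, 37 and 35 against 54, 58 and 58. The whole coding sequences have a GC content of 48.0%, 41.1% and 39.0% against 60.1%, 64.7% and 64.2%.

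The values and calls by group that follow are over input unless the no-probe captures are named. Beside the group counts stand the shares of all tested genes, 19.4% higher and 16.4% lower with TIA1 and 20.8% and 17.5% with G3BP2. For DDX6 these shares were 20.4% and 17.3% with arsenite and 22.9% and 19.6% without. The groups are small, and none was tested as a set. Of the H3K4 methyltransferases, none of the 6 was higher in any enrichment over input, and 2 were lower with TIA1, 3 with G3BP2, 6 with DDX6 arsenite and 2 with DDX6 unstressed, with medians of -0.36, -0.36, -1.003 and -0.32. KMT2D had 71.7 and 71.9 CPM (counts scaled to a common TMM-normalised library size) in the TIA1 labelled captures, 109 and 99.3 CPM in the no-probe captures and 115 and 112 CPM in the inputs. In G3BP2 cells it had 63.4 and 50.5 CPM in the labelled captures, 84.0 and 95.7 CPM without probe and 81.6 and 73.2 CPM in the inputs. In DDX6 arsenite cells the labelled captures held 36.2 and 35.0 CPM of KMT2D, the no-probe captures 66.3 and 112 CPM and the inputs 110 and 106 CPM. The labelled captures lay below both other kinds of library in every combination, also in DDX6 unstressed cells, with 127 and 134 CPM against 215 and 219 CPM without probe and 224.5 and 230 CPM in the inputs. The log2 changes over input were -0.66 ± 0.17 (SE) with TIA1, -0.44 ± 0.17 with G3BP2 (adjusted p = 0.0431), -1.60 ± 0.18 with DDX6 arsenite (adjusted p = 6.8e-08) and -0.80 ± 0.16 with DDX6 unstressed. For G3BP2 the value was 0.09 under total counts, and the adjusted p was 0.388 without labelled capture replicate 2, 0.346 without input replicate 1 and 0.11 without input replicate 2.

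None of the other 5 members of that group passed in a test of the difference between baits. KMT2C, the enhancer paralog of KMT2D, had 0.31 ± 0.16 with TIA1 (adjusted p = 0.139), -0.28 ± 0.16 with G3BP2 (adjusted p = 0.155), -0.41 ± 0.16 with DDX6 arsenite (adjusted p = 0.0456) and -0.01 ± 0.15 with DDX6 unstressed, and near-identical copies of parts of this gene elsewhere in the genome make its counts uncertain. Over the no-probe capture KMT2C rose with TIA1 (0.51) and DDX6 unstressed (0.57). KMT2B fell with TIA1 (-0.65 ± 0.19), with DDX6 arsenite (-1.0035 ± 0.20) and with DDX6 unstressed (-0.48 ± 0.18), but had 0.01 with TIA1 under total counts. SETD1B, the catalytic subunit of a SET1 complex, had 17.2 and 16.4 CPM in the G3BP2 labelled captures, 37.6 and 33.6 CPM without probe and 32.5 and 30.2 CPM in the inputs, a log2 change over input of -0.90 ± 0.21 (adjusted p = 0.00123). Its value was -1.34 ± 0.23 with DDX6 arsenite, where labelled captures held 12.8 and 12.5 CPM and inputs 30.3 and 34.1 CPM. KMT2A fell with G3BP2 (-0.53 ± 0.19) and with DDX6 arsenite (-1.002 ± 0.20) and had -0.19 ± 0.19 with TIA1 and -0.01 ± 0.18 with DDX6 unstressed. SETD1A passed only with DDX6 arsenite (-0.41 ± 0.16).

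The other lysine methyltransferases went both ways. SETD2, which trimethylates H3K36, rose with TIA1 (0.59 ± 0.16, adjusted p = 0.0045), G3BP2 (0.53 ± 0.16) and DDX6 unstressed (0.53 ± 0.15) and had 0.16 ± 0.16 with DDX6 arsenite (adjusted p = 0.45). NSD1, which dimethylates the same residue, passed in the same 3 combinations, between 0.49 and 0.62. Over the no-probe capture SETD2 rose in all 4 combinations, by 0.65 with DDX6 arsenite. DOT1L, which methylates H3K79, had 32.4 and 40.4 CPM in the TIA1 labelled captures, 64.9 and 56.5 CPM without probe and 51.0 and 59.3 CPM in the inputs. It fell with TIA1 (-0.60 ± 0.20, but 0.06 under total counts), with DDX6 arsenite (-1.02 ± 0.20) and with DDX6 unstressed (-0.70 ± 0.18) and had -0.31 ± 0.19 with G3BP2. ASH1L fell only with DDX6 arsenite (-0.56 ± 0.16). EHMT1, the H3K9 enzyme that pairs with EHMT2, and SETD5 did not pass over input, with values between -0.30 and 0.29, and SETD5 rose over the no-probe capture with G3BP2 (0.40 ± 0.16).

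Of the 8 histone demethylases, 3 rose with TIA1 and none fell, 5 rose with G3BP2, 4 rose and 2 fell with DDX6 arsenite, and 4 rose and 1 fell with DDX6 unstressed. KDM5B had 146 and 150 CPM in the TIA1 labelled captures, 91.0 and 82.0 CPM in the no-probe captures and 97.1 and 92.7 CPM in the inputs. With G3BP2 it had 268.5 and 197 CPM in labelled captures, 99.1 and 75.5 CPM without probe and 92.8 and 85.1 CPM in inputs. The labelled captures exceeded every no-probe and input library of the same combination, in DDX6 arsenite (165 and 120 CPM against 99.2 and 64.8 CPM without probe and 83.9 and 70.2 CPM in inputs) and DDX6 unstressed as well (193 and 191 CPM against 102 and 94.3 CPM and 96.0 and 86.9 CPM). Its log2 changes over input were 0.64 ± 0.19, 1.39 ± 0.18 (adjusted p = 6.86e-07), 0.89 ± 0.19 and 1.07 ± 0.18. KDM5A followed with 0.85, 1.09, 0.56 and 0.80, and KDM3B with 0.48, 1.12, 0.48 and 0.52. KDM3B was the least secure of these, with an adjusted p of 0.0528 to 0.123 for TIA1 when any 1 of its 4 libraries was left out. KDM4A rose with G3BP2 (0.86 ± 0.16), DDX6 arsenite (0.58 ± 0.17) and DDX6 unstressed (0.55 ± 0.16), though other annotated genes overlap 48.5% of its exon bases. Its paralog KDM4B did not pass over input, between -0.21 and 0.00, and fell over the no-probe capture with TIA1 (-0.46 ± 0.19) and DDX6 arsenite (-0.47 ± 0.19). KDM2A, an H3K36 demethylase, fell with DDX6 arsenite (-0.58 ± 0.17), and its paralog KDM2B rose with G3BP2 (0.57 ± 0.18). KDM6B, which removes H3K27 methylation, fell with DDX6 arsenite (-1.09 ± 0.24) and DDX6 unstressed (-0.75 ± 0.21).

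**Figure D2:**
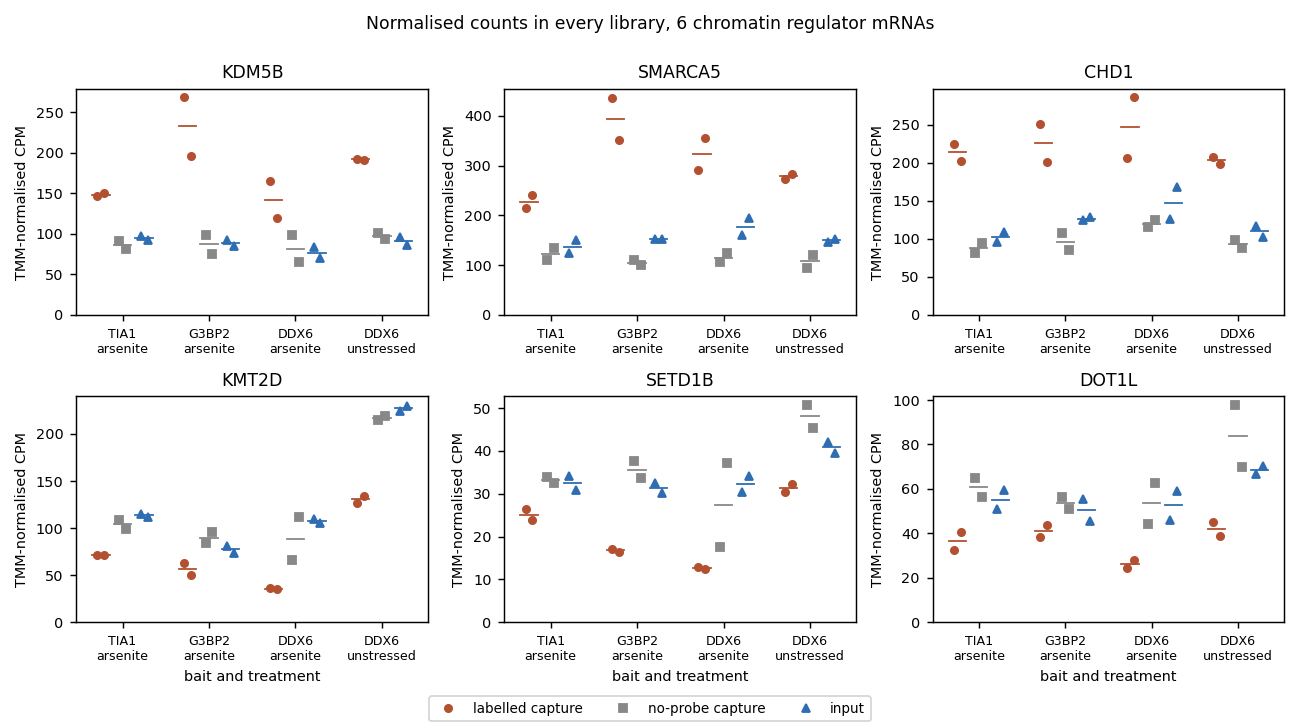
TMM-normalised CPM (y axis, from 0) of 6 members in every library by bait and treatment (x axis), with labelled captures as circles, no-probe captures as squares, inputs as triangles and short lines for the means of 2. For KDM5B, SMARCA5 and CHD1 the circles lie above the squares and triangles of their combination, and for KMT2D, SETD1B and DOT1L they lie below them.

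The acetyltransferases CREBBP and EP300 and the scaffold TRRAP were higher in no enrichment. All 3 were lower with DDX6 arsenite, at -0.96 ± 0.17, -0.72 ± 0.17 and -0.37 ± 0.15 (adjusted p = 0.0488), and CREBBP also with DDX6 unstressed (-0.44 ± 0.15). Under total counts CREBBP had 0.03 in DDX6 unstressed and TRRAP 0.17 in DDX6 arsenite. With TIA1 the values ran from -0.38 to -0.19 and with G3BP2 from -0.27 to 0.13, none past the threshold.

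Among the 8 CHD remodellers 4 rose with TIA1 and none fell, 4 rose and 1 fell with G3BP2, 1 rose and 2 fell with DDX6 arsenite, and 2 rose with DDX6 unstressed. CHD1, which binds methylated H3K4 at active genes, had 225 and 202 CPM in the TIA1 labelled captures, 82.1 and 94.2 CPM without probe and 96.2 and 109 CPM in the inputs. That is a log2 change over input of 1.06 ± 0.18 (adjusted p = 2.28e-05), the highest of the panel with TIA1, and CHD1 had 0.83 with G3BP2, 0.74 with DDX6 arsenite and 0.89 with DDX6 unstressed. CHD8 rose with G3BP2 (0.80 ± 0.16) and DDX6 unstressed (0.71 ± 0.15), CHD9 with TIA1 (0.59 ± 0.17) and CHD3, a subunit of the NuRD complex, with G3BP2 (0.63 ± 0.16). CHD2, CHD4 and CHD7 differed between baits and are taken up with those tests.

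Of the SWI/SNF subunits, ARID2, which defines the PBAF form, rose with TIA1 (0.92 ± 0.17, from 108 and 112 CPM in labelled captures, 45.5 and 55.0 CPM without probe and 53.2 and 63.3 CPM in inputs) and with G3BP2 (0.47 ± 0.16). ARID1A and ARID1B, which take its place in the BAF form, rose in none and fell with DDX6 arsenite, at -0.72 ± 0.18 and -0.62 ± 0.16. SMARCC1, a core scaffold subunit, rose with G3BP2 (0.88 ± 0.16) and DDX6 unstressed (0.42 ± 0.15), while its paralog SMARCC2 did not pass (-0.08 to 0.25). Over the no-probe capture ARID2 and SMARCC1 rose in all 4 combinations, ARID2 between 0.398 and 1.13 and SMARCC1 between 0.398 and 0.815. The ATPase SMARCA4 fell with TIA1 (-0.96 ± 0.18) and with DDX6 arsenite (-0.58 ± 0.18), and the alternative ATPase SMARCA2 had values between -0.26 and 0.33, none past the threshold, but rose over the no-probe capture with G3BP2 (0.49 ± 0.19) and DDX6 unstressed (0.53 ± 0.18).

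In the ISWI and INO80 families SMARCA5, the ISWI ATPase, had 437 and 351 CPM in the G3BP2 labelled captures, 110 and 99.9 CPM without probe and 152.5 and 153 CPM in the inputs, so that its log2 change over input was 1.37 ± 0.17 (adjusted p = 1.99e-07). It had 0.73 with TIA1, 0.86 with DDX6 arsenite and 0.89 with DDX6 unstressed, and antisense genes overlap 13.5% of its exon bases. BAZ1B had 0.63, 1.15, 0.78 and 0.81 in the order TIA1, G3BP2, DDX6 arsenite and DDX6 unstressed. INO80 rose with G3BP2 only (0.62 ± 0.22, adjusted p = 0.0239). BPTF and BAZ2A, other ISWI partners, had values between -0.21 and 0.13, while over the no-probe capture BPTF rose with DDX6 arsenite (0.39) and DDX6 unstressed (0.56) and BAZ2A with G3BP2 (0.46). The H2A.Z-loading ATPase EP400 fell with DDX6 arsenite (-0.88 ± 0.21). SRCAP, which loads the same histone variant, fell with DDX6 arsenite (-1.30 ± 0.32) and DDX6 unstressed (-1.13 ± 0.27), on 13 to 63 counts per library, and other annotated genes overlap 76.0% of its exon bases.

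The 7 remaining members are TET2 and TET3, which oxidise methylated cytosine, the Polycomb-related ASXL1 and ASXL2, the corepressor NCOR1 and the bromodomain proteins BRWD1 and PHIP. With TIA1 5 of them rose and none fell, and with the other combinations 1, 0 and 2 rose and 0, 2 and 0 fell (G3BP2, DDX6 arsenite and DDX6 unstressed). BRWD1 had 166 and 170 CPM in the TIA1 labelled captures, 76.0 and 72.3 CPM without probe and 83.3 and 86.2 CPM in the inputs, a log2 change of 0.99 ± 0.16 (adjusted p = 1.24e-05). PHIP, its close relative, rose with TIA1 (0.79 ± 0.17) and with DDX6 unstressed (0.62 ± 0.17), but had values of 0.00 and -0.04 once a trend with GC content over all genes was removed. Over the no-probe capture, with that trend not removed, PHIP rose in all 4 combinations, between 0.60 and 1.21. TET2 rose with TIA1 (0.56 ± 0.20) and ASXL2 with TIA1 (0.45 ± 0.17) and DDX6 unstressed (0.47 ± 0.16). ASXL1 rose with G3BP2 (0.44 ± 0.15) and fell with DDX6 arsenite (-0.46 ± 0.16), and NCOR1 had values from -0.06 to 0.12 over input. Over the no-probe capture NCOR1 rose with G3BP2 (0.43 ± 0.15), DDX6 arsenite (0.46 ± 0.15) and DDX6 unstressed (0.42 ± 0.15).

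To ask whether a member was drawn more to 1 bait than to another under arsenite, the enrichments themselves were compared. TIA1 minus G3BP2 gave 2 members higher and 2 lower, against 2.28% and 1.33% of all tested genes. CHD2, a remodeller of active genes, had 139 and 124 CPM in the TIA1 labelled captures and 57.0 and 43.7 CPM in the G3BP2 labelled captures, while the inputs held 91.7 and 88.2 CPM with TIA1 and 95.8 and 97.1 CPM with G3BP2. Its enrichment was 0.55 ± 0.16 with TIA1 and -0.93 ± 0.16 with G3BP2, a difference of 1.48 ± 0.23 (adjusted p = 0.000196). CHD2 was the 1 member of the 4 that still passed with any 1 library left out. Other annotated genes on the same strand overlap 10.2% of the exon bases of CHD2.

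The other 3 in that comparison were BRWD1, SMARCA4 and CHD4. SMARCA4 had 157 and 175 CPM in the TIA1 labelled captures and 287 and 361 CPM in the inputs of that line, against 282 and 306 CPM and 260 and 255 CPM in G3BP2 cells, a difference of -1.15 ± 0.26 (adjusted p = 0.0108). CHD4, the NuRD ATPase, had 295 and 311 CPM in the TIA1 labelled captures and 254 and 256 CPM in the inputs, against 509 and 428 CPM and 196 and 204 CPM in G3BP2 cells, a difference of -0.98 ± 0.22 (adjusted p = 0.00992). Other annotated genes overlap 53.5% of the exon bases of CHD4. BRWD1 differed by 0.82 ± 0.22 (adjusted p = 0.0316). The count of 4 was 1 without TIA1 labelled capture replicate 1, TIA1 input replicate 2 or either G3BP2 input, and 9 in a fit to the compared libraries alone.

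DDX6 minus TIA1 under arsenite gave 0 members higher and 5 lower, against 0.843% and 1.51% of all genes. CHD2 was lower again, with 35.6 and 32.4 CPM in the DDX6 labelled captures and 71.7 and 63.0 CPM in the inputs, a difference from TIA1 of -1.53 ± 0.23 (adjusted p = 0.00016). TET3 had 22.1 and 18.8 CPM in DDX6 labelled captures and 34 and 30.5 CPM in DDX6 inputs, against 58.5 and 35.4 CPM and 33.2 and 27.4 CPM with TIA1, a difference of -1.28 ± 0.34 (adjusted p = 0.036), but -0.83 with an adjusted p of 0.286 without TIA1 labelled capture replicate 1. CHD7, a remodeller of enhancers, had 68.0 and 49.4 CPM in DDX6 labelled captures and 90.9 and 79.1 CPM in DDX6 inputs, against 96.6 and 92.1 CPM and 70.0 and 60.8 CPM with TIA1. CHD7 differed by -1.05 ± 0.26 (adjusted p = 0.0245). BRWD1 and KMT2D, named after their values were seen, differed by -0.87 ± 0.22 (adjusted p = 0.03) and -0.94 ± 0.25 (adjusted p = 0.0355). Both comparisons use the TIA1 libraries. The count of 5 was 1 or 2 without any 1 of 6 libraries, namely all 4 of TIA1, DDX6 labelled capture replicate 2 and DDX6 input replicate 1, and 2 in a fit to the compared libraries alone.

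DDX6 minus G3BP2 under arsenite gave no member past the threshold with edgeR, against 0.0487% of all genes, with 22 at an unadjusted p under 0.05 and 4 by DESeq2. The counts of 22 and 4 have no share of all genes beside them and are not read as a result. Estimates were at or below 0 for 51 of the 52 members, with a panel median of -0.46 against -0.03 for all genes. Over tested protein-coding genes this difference fell with coding length (Spearman's rho -0.28), and over the members, which have long coding sequences, rho was -0.08. With the GC content of the transcript, rho was -0.31 over tested protein-coding genes and -0.60 over the members. The part of length or GC content in the panel median was not tested. KMT2D, the nearest to the threshold, had -1.16 ± 0.25 (adjusted p = 0.064).

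**Figure D3:**
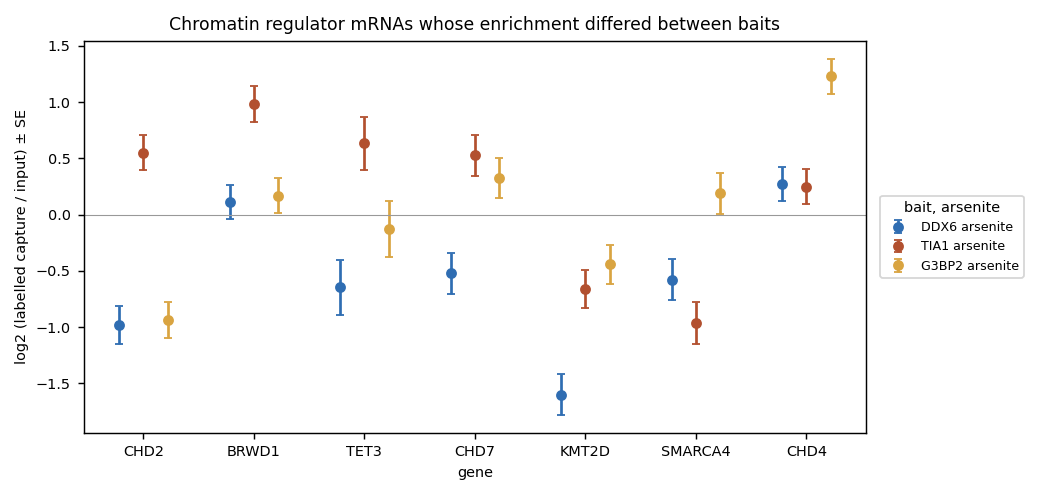
Log2 change of the labelled capture over its input with its SE (y axis) for the 7 members that passed in a comparison of baits (x axis), for DDX6, TIA1 and G3BP2 under arsenite. CHD2 is at 0.55 with TIA1 and near -1 with both other baits, and CHD4 is at 1.23 with G3BP2, 0.27 with DDX6 and 0.25 with TIA1.

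Arsenite was examined in the DDX6 line in 2 ways. The difference of the DDX6 enrichments, arsenite minus unstressed, passed for no member with edgeR or DESeq2, against 0.0209% of all genes, with 12 members at an unadjusted p under 0.05. The 12 have no share of all genes at that p beside them and are likewise not read as a result. Estimates were at or below 0 for 48 of 52 members, and the panel median was -0.32 against -0.02 for all genes. With coding length this difference had a Spearman's rho of -0.13 over tested protein-coding genes and -0.49 over the members. KMT2A had the smallest unadjusted p, with an estimate of -0.996 ± 0.27 (adjusted p = 0.894). One member, in place of none, passed without DDX6 arsenite labelled capture replicate 1.

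In the inputs of the DDX6 line, 8 members were lower with arsenite than without and none higher, 15.4% of the panel against 0.787% and 0.362% of all genes. Bulk libraries give a share of RNA, so fewer cells with an mRNA and less of it per cell cannot be told apart. KMT2D had 110 and 106 CPM in arsenite inputs against 224.5 and 230 CPM in unstressed inputs, a log2 change of -1.07 ± 0.17 (adjusted p = 0.000376). EP400 had 66.9 and 54.5 CPM with arsenite against 127 and 132 CPM without, -1.10 ± 0.20 (adjusted p = 0.0029). ARID1A had 68.7 and 61.4 CPM against 108 and 116 CPM, -0.78 ± 0.18 (adjusted p = 0.0189). In none of these 3 did the groups overlap. The other 5, named after their values were seen, were CHD7 (-0.75), KMT2C (-0.72), NSD1 (-0.69), CREBBP (-0.64) and EP300 (-0.64), that is a remodeller, the methyltransferases KMT2C and NSD1, and the acetyltransferase pair.

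The same 8 mRNAs could be read in the arsenite inputs of the other 2 lines, as a description and with line and treatment not separable. They were chosen on the DDX6 inputs, which are 2 of the 6 arsenite inputs and both unstressed ones, so part of the order is fixed by the choice. All 6 arsenite inputs lay below both unstressed inputs for KMT2D, KMT2C, NSD1, EP300, CHD7, ARID1A and EP400, and 5 of 6 did for CREBBP. The same held for 27 of the 52 tested members. The share of all tested genes with this order was not counted, so the 27 are not read as a result about the panel. Among the 27 were KMT2A and SETD1A, which did not pass the test in the DDX6 inputs. KMT2D, for example, had 115 and 112 CPM in TIA1 inputs and 81.6 and 73.2 CPM in G3BP2 inputs. The panel median in the DDX6 comparison was -0.34 against 0.02 for all genes, with 45 of 52 members at or below 0, and it was -0.14 once a trend with exon length over all genes was removed. The count of 8 was 1 without DDX6 arsenite input replicate 2, 5 without arsenite input replicate 1 and 2 without either unstressed input, and KMT2D passed in each of these. EP400 had an adjusted p of 0.165 without arsenite input replicate 2, and ARID1A had 0.132 and 0.221 without unstressed input replicates 1 and 2 and 0.46 without arsenite input replicate 2. This comparison and the difference of enrichments share the DDX6 inputs.

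**Figure D4:**
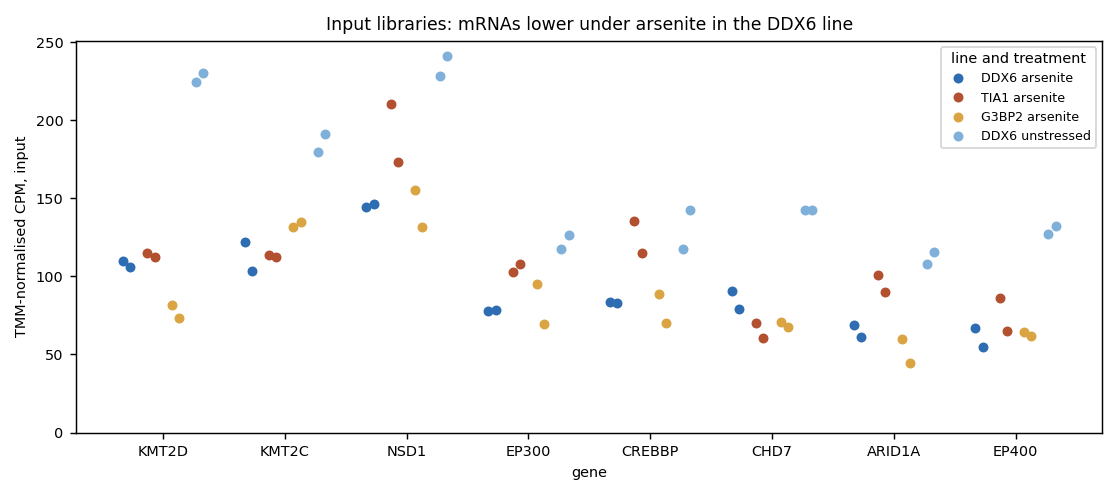
TMM-normalised CPM (y axis, from 0) in each input library of the 8 members that were lower with arsenite in the DDX6 line, by line and treatment (colour). The genes were chosen on the DDX6 libraries plotted. The 2 unstressed inputs lie above all 6 arsenite inputs for those shown except CREBBP, as they do for 27 of the 52 tested members. The share of all tested genes with this order was not counted.

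The choice of members did not use transcript composition. Enrichment over input fell with the GC content of the transcript, with Spearman's rho over the 52 members of -0.83 with TIA1, -0.37 with G3BP2, -0.62 with DDX6 arsenite and -0.73 with DDX6 unstressed. The same values over 12339 tested protein-coding genes were -0.66, -0.39, -0.61 and -0.59. These are descriptions across genes measured in the same libraries, not replicates. Between no-probe captures and inputs the sign was the opposite, 0.45, 0.65, 0.35 and 0.64 for the members in the same order.

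Members ranged in GC content from 36.6% for PHIP to 64.8% for SETD1B, with a median of 50.4% against 49.2% for protein-coding genes. Of the 26 members at or below 50.4%, 15 were higher and 0 lower with TIA1, whereas of the 26 above it 2 were higher and 4 lower. With DDX6 unstressed the low-GC members had 11 higher and 0 lower and the high-GC members 2 higher and 6 lower. G3BP2 divided them less, with 11 higher and 2 lower against 6 and 2. With DDX6 arsenite 5 low-GC members were higher and 5 lower, against 2 higher and 17 lower at high GC. The shares of all tested genes called at low and high GC were not counted. Tested protein-coding genes also fell with GC content, with TIA1 from a median of 0.85 in the bin centred on 36% to -0.71 in that on 64%.

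**Figure D5:**
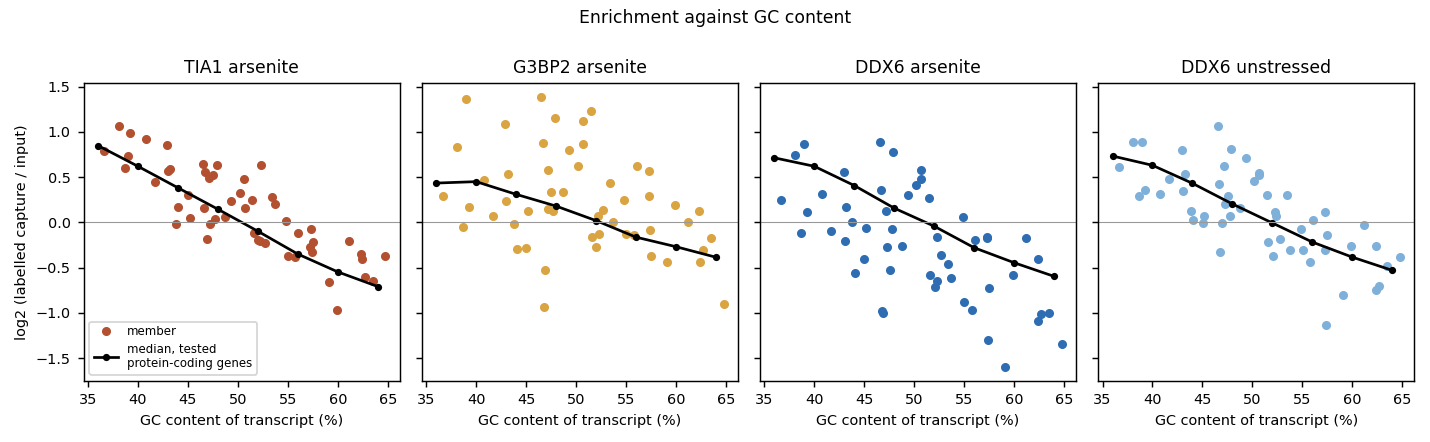
Log2 change of the labelled capture over input (y axis) against transcript GC content in percent (x axis) for the 52 tested members (points), with the median of tested protein-coding genes in bins of GC content (black line), for the 4 combinations. Points follow the falling line with TIA1 (rho -0.83) and scatter widely around it with G3BP2 (rho -0.37).

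Once the trend with GC content over all genes was removed, KDM5B kept values of 0.48 with TIA1, 1.26 with G3BP2, 0.70 with DDX6 arsenite and 0.88 with DDX6 unstressed, and BAZ1B 0.55, 1.07, 0.66 and 0.70. CHD1, at 38.1% GC, came down to 0.36, 0.46, 0.10 and 0.29. KMT2D, at 59.1% GC, had -0.14, -0.16, -1.18 and -0.39, and SETD1B 0.38, -0.51, -0.72 and 0.22. CHD2, at 46.8% GC, hardly moved with TIA1 (0.40) or G3BP2 (-1.05). These adjusted values have no test of their own.

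The members also have long transcripts, with a median of 8527 bases against 3227 for tested protein-coding genes, and coding sequences of 5613 against 1467 bases, longer than 96.3% of those genes. Over protein-coding genes enrichment rose with length (rho of 0.36, 0.34, 0.18 and 0.26 in the order TIA1, G3BP2, DDX6 arsenite and DDX6 unstressed), but among the members rho was 0.11, -0.41, -0.31 and -0.09. In the inputs the members' levels per kilobase of exon, as medians of 8 libraries, ran from 52.5 CPM per kb for SMARCA4, 43.4 for SMARCC1 and 39.8 for CHD4 down to 2.80 for TET3 and 0.905 for SRCAP. SMARCA4 (46.3 to 65.5 over the libraries) and SMARCC1 (29.8 to 50.6) overlapped, as did SMARCC1 and CHD4 (31.1 to 52.8), and no test was made of levels between genes.

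Other genes of the same complexes gave a wider view. Of 46 core subunits that are not members, such as YEATS4 and TAF10, 44 were tested, and 10 were higher and 8 lower with TIA1, 16 and 7 with G3BP2, 13 and 7 with DDX6 arsenite and 15 and 3 with DDX6 unstressed (medians 0.03, 0.19, 0.06 and 0.26). Of 65 other chromatin enzymes and readers 64 were tested, and 23 were higher and 11 lower, 29 and 5, 21 and 8, and 24 and 6 in the same order (medians 0.25, 0.36, 0.20 and 0.23). In percent the core subunits had 22.7 higher and 18.2 lower, 36.4 and 15.9, 29.5 and 15.9, and 34.1 and 6.82. The other list had 35.9 and 17.2, 45.3 and 7.81, 32.8 and 12.5, and 37.5 and 9.38. All tested genes had 19.4 and 16.4, 20.8 and 17.5, 20.4 and 17.3, and 22.9 and 19.6. Neither list had a gene past the threshold between the arsenite and unstressed DDX6 inputs, where 10 and 16 had an unadjusted p under 0.05. These unadjusted counts also stand without a share of all genes. YEATS4, a reader in acetyltransferase complexes, rose in all 4 enrichments, between 1.21 and 1.72, and PHF6, a PHD-finger protein, between 1.17 and 1.46. TAF10, a subunit of TFIID and SAGA, fell in all 4, between -1.61 and -0.94. GPS2, a subunit of the NCOR complex, fell with TIA1 (-2.31 ± 0.76), G3BP2 (-2.15 ± 0.67) and DDX6 arsenite (-1.87 ± 0.68).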

How the data were processed

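The deposited table holds raw read counts, 1 row per gene of Ensembl 87, as deposited by the authors and per the file headers. Per the submitters' processing notes the reads went through cutadapt 1.18, FastQC 0.11.8, HISAT2 2.1.0, SAMtools and HTSeq 0.7.2 on GRCh38. The strand setting is not given in the sources used here, so counts of overlapping and antisense genes are uncertain, and 7 tested members share over 10% of their exon bases with other GENCODE genes. Of 57992 genes 57388 matched GENCODE 29, which gave symbols, length and GC content for the transcript with the longest coding sequence.

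Counts were filtered with filterByExpr, scaled by TMM and fitted in 1 edgeR 4.0.16 quasi-likelihood model (R 4.3.3) with a coefficient for each of the 12 groups, on all 24 libraries (residual df 12, common BCV 12.9%, the spread between replicates). Tests were two-sided with Benjamini-Hochberg adjustment over 14360 genes and a threshold of 0.05. Only the comparison of TIA1 labelled capture with input was also run on simulated counts. Values are log2 changes ± SE, and CPM are TMM-normalised. Alternatives were DESeq2 1.42.0, other scalings and filters, and a replicate block. Members, lists and tests were chosen with earlier results of these data known. Named members are the 3 highest and 3 lowest per enrichment, the 3 largest called differences in each direction, the highest and lowest of each functional group and those called alike in all 4 enrichments. Other members are named to account for the panel, after their values were seen. Of genes outside the panel, the 2 highest and 2 lowest called ones are named.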

Additional observations from a re-analysis of the deposited data

Results flagged for a closer look

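Differences between baits under arsenite passed the test of the difference itself for 4 members between TIA1 and G3BP2 and for 5 between DDX6 and TIA1, and the TIA1 libraries are common to both comparisons. TIA1 minus G3BP2 was 1.48 for CHD2, 0.82 for BRWD1, -0.98 for CHD4 and -1.15 for SMARCA4. DDX6 minus TIA1 was -1.53 for CHD2, -1.28 for TET3 and -1.05 for CHD7. For CHD2 the no-probe captures over input had log2 changes of -0.25 with TIA1, -0.44 with G3BP2 and -0.33 with DDX6 arsenite. None was called, as for every member. At most 0.167% of all tested genes were called there, so the lack of a call does not measure background binding of CHD2. The part that cell line plays cannot be told apart from that of the bait.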

How the results depend on the processing

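SRCAP rests on 13 to 63 counts per library. Counts of members called, in the order TIA1, G3BP2, DDX6 arsenite and DDX6 unstressed, ran from 11 to 18, 13 to 21, 18 to 21 and 13 to 14 over input, and for capture over no-probe from 16 to 26 with G3BP2 and 17 to 24 with DDX6 arsenite, when 1 library was left out. They ran from 1 to 4 for TIA1 minus G3BP2, 1 to 7 for DDX6 minus TIA1, 0 to 1 for DDX6 arsenite minus unstressed and 1 to 5 for the DDX6 inputs. Total counts gave 37, 35 and 31 over input (TIA1, G3BP2, DDX6 unstressed), 44 over no-probe with TIA1, 3 for DDX6 minus TIA1 and 13 for the inputs. A fit to the compared libraries gave 36 over input and 4 for no-probe over input (both DDX6 unstressed), 11 over no-probe with DDX6 arsenite, 9 for TIA1 minus G3BP2 and 2 for DDX6 minus TIA1. DDX6 minus G3BP2 had 2 with protein-coding genes only, 2 with no filter and 4 with DESeq2. Replicate numbers mark no shared source in the labels, and same-numbered captures and inputs correlated in their deviations at 0.17, 0.04, 0.39 and -0.0042. A replicate block gave 22, 23, 31 and 23 over input, 13 for TIA1 minus G3BP2, 12 for DDX6 minus TIA1, 6 for DDX6 minus G3BP2, 1 for DDX6 arsenite minus unstressed, 4 for the inputs, and 2 and 1 for no-probe over input (G3BP2, DDX6 unstressed). The cause was not tested.

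Panel medians over input with total counts were 0.77, 0.66, 0.35 and 0.55, with the length trend removed -0.15 (TIA1) and -0.081 (DDX6 unstressed), with no filter 0.31 and 0.27, with the GC trend removed 0.21 (TIA1), with RLE 0.057 (TIA1) and with protein-coding genes only -0.029 (DDX6 unstressed). Named values that changed sign under total counts included DOT1L 0.057, KMT2B 0.0052 and TRRAP 0.43 with TIA1, KMT2D 0.087 with G3BP2, KMT2C 0.13 and TRRAP 0.17 with DDX6 arsenite, and CREBBP 0.025 and KMT2C 0.45 with DDX6 unstressed. With the GC trend removed they included DOT1L 0.065, KMT2B 0.047 and PHIP -0.0025 with TIA1 and PHIP -0.039 with DDX6 unstressed. The values named for the GC trend had passed the threshold over input. So had those for total counts, except TRRAP with TIA1 and KMT2C with DDX6 unstressed. Values that had not passed also changed sign with the GC trend removed. Among them were KDM6B 0.25 and SRCAP 0.11 with TIA1, and DOT1L 0.048 and PHIP -0.1 with G3BP2. So did ARID2 -0.21, PHIP -0.45 and SETD2 -0.23 with DDX6 arsenite, and ARID2 -0.18 and SMARCA4 0.18 with DDX6 unstressed. Of 1316 values of named members under alternatives 1035 kept direction and call, 126 lost and 27 gained a call. Another 12 were counted as reversed, which is not every change of sign, and 116 without a test moved by more than their SE. With the GC trend removed, 61 of 92 such values moved or reversed.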
